A study of Mus musculus with 12 samples.

Results

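Cultured B cells of an early and a late stage of development were compared: marrow B cells of wild-type (WT) mice grown for 48 h with IL7, and splenic B cells of WT mice grown for 48 h with LPS. The members are 6 of the 12 RNA sequencing libraries of the study, all 3 WT libraries of each culture, chosen by their labelled genotype, source and stimulus and not by any measured value. The other 6 libraries come from littermates with T58A, a point mutation in MYC, and were grown in the same ways. Each WT library carries a number from 1 to 3 that the titles also use to pair it with a T58A library, and no allele or agent other than IL7 or LPS is named for the WT groups. The submitters describe the marrow cells as immature and the splenic cells as mature B cells. How the cells were isolated, and the age of the mice, are not given in the sources used here. Tissue, stimulus and stage of development change together between the groups, so none of them can be told apart from the others in any difference given here. The labels do not name the animal behind each library, and p-values measure only the spread between these libraries, which may be technical in part.

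B cell precursors in the marrow first assemble a heavy chain gene with the recombinase RAG1/RAG2. They then test the product in a pre-B cell receptor, in which the surrogate light chain proteins VPREB and IGLL1 stand in for a light chain. The cytokine IL7 signals through its receptor, JAK kinases and STAT5, and drives the growth of these precursors. Mature B cells of the spleen carry a finished receptor. LPS, a component of the outer membrane of Gram-negative bacteria, is sensed on them by TLR4 and the related receptor CD180. It activates NF-kB, makes the cells divide, and turns part of them into plasmablasts that secrete antibody through an enlarged endoplasmic reticulum.

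Between 5110746 and 10201113 reads per WT library were assigned to genes. A gene with 0 reads in 1 library could still have a level of up to 3 reads, which is 2.19 to 4.90 normalised reads depending on the library. A normalised read is a read divided by a size factor set over the 6 libraries together. The first principal component, with 86.2% of the variance, separated the cultures. Pearson correlations of log2 values across genes were 0.965 to 0.979 within a culture and 0.733 to 0.788 between cultures. Sex-linked transcripts marked WT 1 and WT 2 as female and WT 3 as male in both cultures, so sex was balanced between them. Among the IL7 libraries, WT IL7 3 correlated least with the LPS libraries, at 0.733 to 0.756. WT IL7 1 and 2 were at 0.773 to 0.788. WT IL7 2, though high in Xist, also held reads of Y-linked genes, with Eif2s3y at 1.47, 47.5 and 665 and Ddx3y at 0, 34.3 and 737 normalised reads in WT IL7 1, 2 and 3. It was also the highest IL7 library in most of the genes that led the list of those higher in LPS, as given beside them. Counts and the values most touched by this library are also given without it. The cause of these features of WT IL7 2 was not tested.

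Of 11694 genes tested, 3269 were higher and 3356 lower in LPS than in IL7 cultures by limma at an adjusted p under 0.05, which is 28% and 28.7% of those tested. By more than 2-fold, tested with limma's treat against that size, 933 were higher (7.98%) and 736 lower (6.29%). The values of the groups did not overlap for 7533 genes, 64.4% of those tested. Differences are given as log2 of LPS minus IL7 on normalised reads plus 1, a scale that understates the change of genes near 0. The median over all genes was -0.03. The calls were 49.3% higher, and 20.6% higher when each culture kept the size factor of its own table, a scaling that moves the median of all genes by -0.57. Scaling by total reads moved that median by -0.12. Differences below are read against the median of all genes, and counts of list members called against the 28% higher and 28.7% lower of all genes. With the size factors of each table Xrcc4, Atm, Orc5, Ccnd2, Rbl2, Fbxw7, Mxi1, Mxd4 and Mlx, described below as higher, were not called higher. Without WT IL7 2, 831 genes were higher and 585 lower by more than 2-fold, and without WT IL7 3 instead, 806 and 595. Among genes called at an adjusted p under 0.05, 808 were higher and 640 lower by over 4-fold, and 28 were higher and 82 lower by over 64-fold. Without WT IL7 2 the genes beyond 64-fold were 41 higher and 79 lower.

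**Figure D1:**
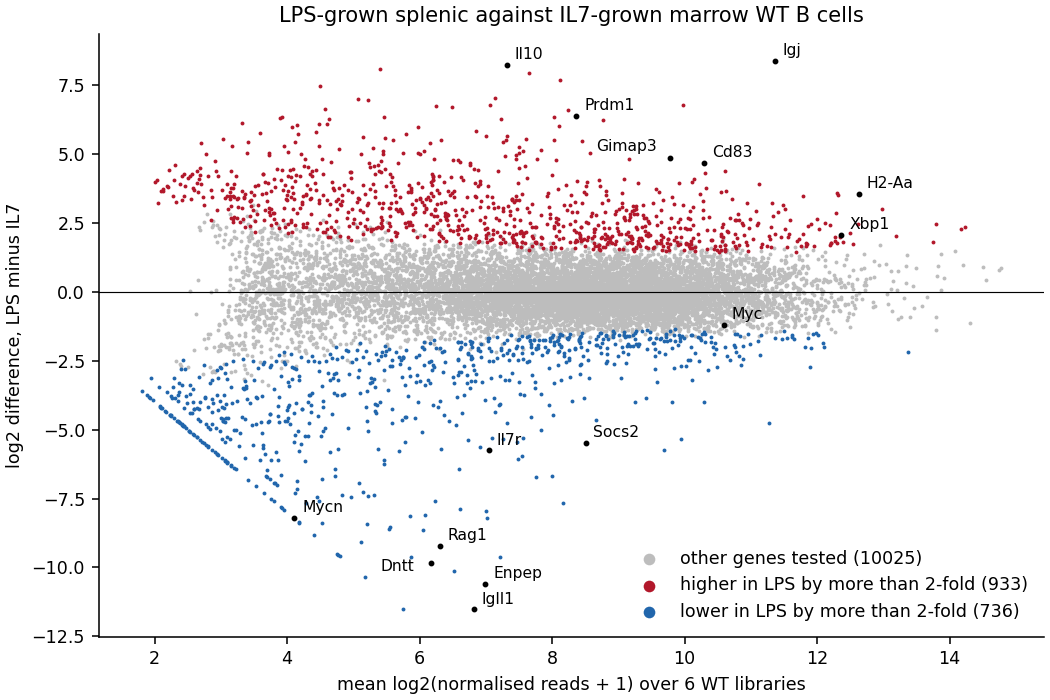
Each point is 1 of 11694 genes. The x axis is its mean log2(normalised reads + 1) over the 6 WT libraries, and the y axis is the log2 difference of LPS minus IL7 cultures. Red and blue points are the 933 higher and 736 lower by more than 2-fold, and the straight lower left edge holds genes with 0 reads in all LPS libraries.

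Among the genes lower in LPS cultures by more than 2-fold with no overlap and at least 100 normalised reads in IL7, the 15 with the largest difference were Igll1, Gldc, Enpep, Vat1l, Vpreb1, Dntt, Crhbp, Myl10, H19, Vpreb2, Htra3, Rag1, Gpr97, Ccdc135 and Nrxn2. At the head of the list stood Igll1, the lambda5 part of the surrogate light chain, on chromosome 16 from 16860671 to 16863985 of GRCm38. Igll1 was at 5197, 6116 and 7081 normalised reads in the IL7 libraries 1 to 3 and at 0, 3.12 and 1.18 in the LPS libraries, a log2 difference of -11.52 ± 0.42 (SE, limma adjusted p = 9.5e-08). Every IL7 library was thus high and every LPS library within a few reads of 0. In bulk RNA, fewer cells of a type and less RNA per cell cannot be told apart. Gldc, which cleaves glycine in mitochondria, was at 2215, 2503 and 4394 in IL7 and at 0 reads in all LPS libraries, at least 2386-fold lower against a floor of 3 reads over the 3 LPS libraries together. On the same floor H19, an imprinted noncoding RNA, was at least 618-fold lower, from 644, 769 and 907. The serine protease Htra3 was at least 625-fold and Vat1l at least 1067-fold lower. Enpep, the peptidase known on precursor B cells as BP-1, was at 4354, 5763 and 5087 in IL7 and at 6.54, 1.04 and 1.18 in LPS. Gpr97, an adhesion receptor, had few reads in LPS, and its ratio of IL7 to LPS was 967 (95% interval 267 to 7989), an exact interval that covers counting error only.

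All 15 were also lower by more than 2-fold in the T58A libraries and without WT IL7 2. Their differences in WT ran from -8.63 in Nrxn2 to -11.52 in Igll1. The stretch before the start of Igll1 is shown because EBF1, a factor that sets up the B lineage, is known to act on surrogate light chain promoters. Capitals mark the EBF core CCCNNGGG, a palindrome searched on both strands, in the 250 bases before the RefSeq start (chr16:16863986-16864235, reverse strand, GRCm38.p6).
Igll1: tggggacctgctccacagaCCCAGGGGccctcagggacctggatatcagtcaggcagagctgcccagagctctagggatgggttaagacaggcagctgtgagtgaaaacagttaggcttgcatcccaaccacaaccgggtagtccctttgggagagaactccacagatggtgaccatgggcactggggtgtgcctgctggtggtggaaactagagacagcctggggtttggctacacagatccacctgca
The core was present in 20.1% of the 796 promoters of genes lower by more than 2-fold and in 20.7% of the 938 promoters of genes higher by more than 2-fold. It was present in 17.7% of all 11814 promoters of tested genes, each 300 bases long. These letters were thus found at similar shares in both directions.

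Surrogate light chain genes separated the cultures, while the rest of the pre-B receptor pathway split both ways. Of 20 genes tested, 6 were lower by more than 2-fold and 2 higher, against 6.29% and 7.98% of all genes. At an adjusted p under 0.05 limma called 7 higher and 6 lower, shares not far from those of all genes. The median was 0.02. It changes sign under total read scaling, with the size factors of each table and without WT IL7 2 or WT LPS 2. Vpreb1 was at 2774, 2921 and 3602 in IL7 and 0, 5.19 and 2.36 in LPS. Vpreb2 was at 631, 599 and 1096 in IL7 and at 0 in all LPS libraries, at least 610.3-fold lower. Vpreb3, a related chaperone of the receptor, kept 668, 437 and 599 normalised reads in LPS against 4288, 3398 and 3501 in IL7, a log2 difference of -2.73 ± 0.18 (SE). The adaptor Lat, better known from T cells, was lower too, at 398, 443 and 688 and 21.2, 39.5 and 37.7. In the other direction stood Bank1, a scaffold of receptor signalling in mature B cells, at 381, 297 and 189 in IL7 and 4371, 4474 and 4426 in LPS, and Lat2, a membrane adaptor, with a difference of 2.54. Blnk and Plcg2, which serve the receptor at both stages, did not pass, with log2 differences of 0.11 and -0.10.

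Recombinase genes and the enzymes of DNA end joining behaved unlike each other. Rag1, on chromosome 2 from 101638252 to 101649532, was at 2416, 1850.2 and 1613 in IL7 and 6.54, 1.04 and 1.18 in LPS, a log2 difference of -9.23 ± 0.45 (SE, limma adjusted p = 4.33e-07). Rag2 was at 417, 510.0 and 344 in IL7 and had 1 read over all LPS libraries, a ratio of 1038 (95% interval 186 to 41042). Dntt, the terminal transferase that adds bases at the joints, was at 1346, 1817 and 4329 and 0, 5.19 and 1.18. All 3 were thus near 0 in every LPS library. The repair enzymes that mature cells also need differed less. Xrcc6, which holds broken ends, was at 2246 ± 299.6 in IL7 and 661 ± 71.6 in LPS (SD, n = 3), a difference of -1.76, and the ligase Lig4 differed by -1.63. Xrcc4 and Atm, the kinase that senses breaks, were higher in LPS by 0.79 and 0.65. Over the list of 15, limma called 7 lower and 4 higher at an adjusted p under 0.05, against 28.7% and 28% of all genes. The share of higher ones was thus close to that of all genes, and Poll and Dclre1c were among those that did not pass.

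Of 36 early B cell development genes, 22 were lower and 10 higher in LPS, against 28.7% and 28% of all genes, with a median of -1.58. The share of higher ones was thus close to that of all genes. The factors Erg, Lef1 and Sox4, which act in progenitors, went with the marrow cells. Erg was at 1146, 1489 and 1988 in IL7 and 4.90, 5.19 and 5.89 in LPS, and Lef1 at 2140.3, 2406 and 3411 and 14.7, 44.7 and 21.2. Sox4 was at 953, 1278 and 1285 and 27.8, 43.6 and 14.1, and Myb, a driver of progenitor division, at 4907, 5440.2 and 4687 and 294, 376 and 277. None of these 4 overlapped between cultures, which held for 64.4% of all genes tested. The log2 differences of these 4 were -7.90, -6.69, -5.43 and -3.99. The core identity factors differed less. Ebf1 was at 3481 ± 81.8 in IL7 and 1436 ± 339 in LPS (SD, n = 3) and Pax5 at 1482 ± 283 and 906 ± 58.1, both lower in LPS, with log2 differences of -1.30 ± 0.17 and -0.69 ± 0.16 (SE, limma adjusted p = 0.000144 and 0.00392). These defining factors of the B lineage were well above the floor in all 6 libraries. Foxo1, Tcf12 and Elf1 did not pass, with differences of -0.11, -0.03 and 0.04.

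Of 46 B lineage transcription factors 23 were higher in LPS and 15 lower, the lower ones at a share near the 28.7% of all genes. The median was 0.45, which becomes -0.13 with the size factors of each table. Irf4, needed for plasma cells, was at 2034, 1754 and 1219.9 in IL7 and 8711, 8235 and 10320.0 in LPS. Batf, a partner of IRF4, was at 97.7 ± 24.4 and 876 ± 162 (SD, n = 3), and Nfatc2, a calcium-dependent factor, differed by 3.36. Prdm1, which encodes BLIMP1, the repressor that ends the B cell program in plasma cells, was at 25.0, 82.6 and 20.4 and 3083, 2639 and 3369. Zbtb32 was at 21.4, 86.2 and 11.6 and 2016, 2358 and 2669. In both of these WT IL7 2 held the highest IL7 value, and without it their differences were 6.99 and 7.11, against 6.39 and 6.33 with it.

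Of 27 genes of the IL7 receptor and JAK-STAT5 pathway, 16 were higher in LPS and 4 lower, with a median of 0.88. The 4 lower were the receptor gene and inhibitors of cytokine signalling that STAT5 is known to induce. Il7r itself was at 918, 1017 and 983 in IL7 and 14.7, 28.1 and 11.8 in LPS, a log2 difference of -5.76 ± 0.29 (SE, limma adjusted p = 4.63e-07). Socs2 was at 2225, 2546 and 2552 and 58.8, 53.0 and 48.3, and Cish was at 846, 902 and 1284 and 50.7, 51.9 and 27.1. Socs1 was at 257 ± 23.5 and 39.4 ± 4.45 (SD, n = 3). A different inhibitor, Socs3, was higher in LPS, at 249.6, 478 and 617 and 2778, 2754 and 2479.5. Il2rg, the receptor chain shared with other cytokines, was higher by 2.07 and Stat3 by 1.91. Il2ra, the alpha chain of the IL2 receptor, was higher in LPS as well, by 2.69. Stat5b, at 1048, 923 and 701 and 879, 1400.5 and 882, overlapped and did not pass.

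**Figure D2:**
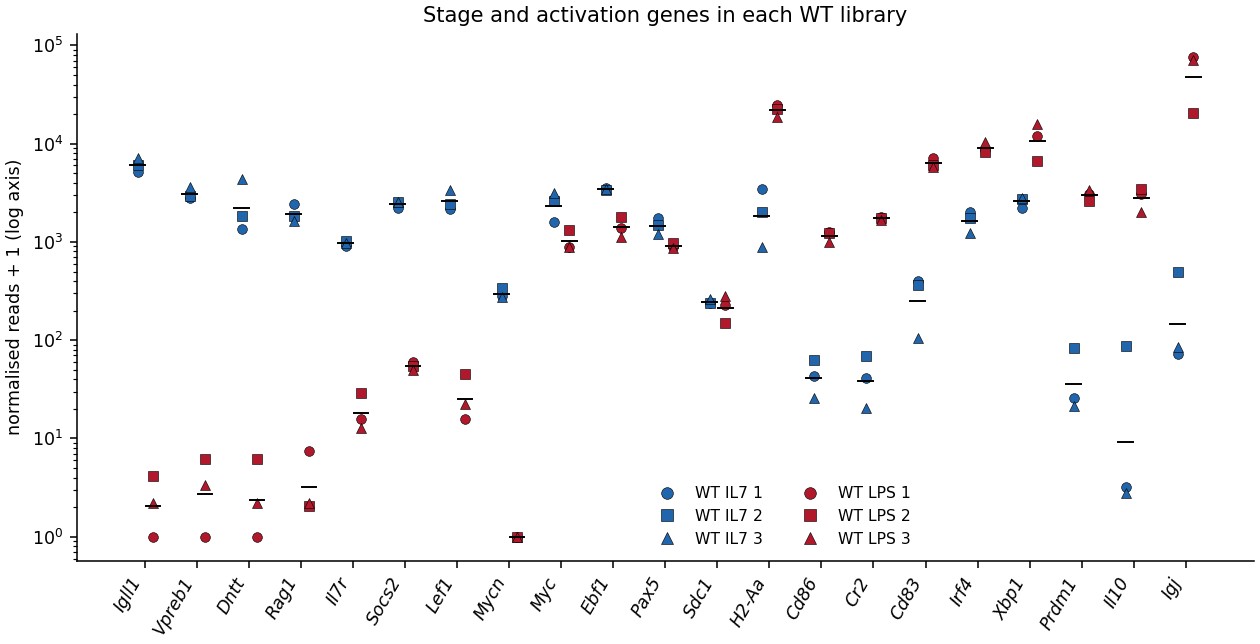
Points are the 6 WT libraries, blue for IL7 and red for LPS with the library number by shape, at normalised reads plus 1 on a log axis. Bars are means on that axis. Surrogate light chain and recombinase genes at the left lie near 0 in LPS, Sdc1 overlaps, and WT IL7 2 (blue squares) lies above the other IL7 libraries in Prdm1, Il10 and Igj.

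The 15 genes with the largest difference towards LPS under the same rule included Igj, Il10, Cacna1s, Lag3, Fam46c, Ankrd55, Papln, Oosp1, Ccr6, Ly6a, St8sia6, Gpr55, Dusp14 and Ctla4. Igj, now named Jchain, on chromosome 5 from 88519809 to 88527897, encodes the chain that joins antibody units into polymers. It was at 70.7, 493 and 84.4 in IL7 and 75388, 20736 and 71259.7 in LPS, a log2 difference of 8.38 ± 0.69 (SE, limma adjusted p = 7.65e-06). The cytokine Il10, which restrains inflammation, was at 2.21, 86.2 and 1.78 and 3083, 3417 and 2019.9. Lag3, an inhibitory receptor for class II molecules, was at 5.15, 89.9 and 2.67 and 3873, 2912 and 2782. Fam46c, a poly(A) polymerase of plasma cells, was at 14.7, 85.5 and 4.44 and 3876, 3021 and 5359.8. These genes were chosen for groups that do not overlap and for large differences, so the gap between the cultures follows from the choice. Ly6a, which encodes the surface antigen Sca-1, was at 114 ± 74.4 in IL7 and 10892 ± 3229.8 in LPS (SD, n = 3). The chemokine receptor Ccr6 was at 22.6 ± 29.3 and 1419 ± 196, and the inhibitory receptor Ctla4 at 40.4 ± 37.5 and 3105 ± 1004.

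In 14 of these 15 genes WT IL7 2 was the highest IL7 library, the exception being Ankrd55 with 0, 0.731 and 1.78. It was highest in 39.2% of the 933 genes higher by more than 2-fold and in 29.5% of all tested. Its excess over the mean of the other IL7 libraries had a median of 2.04% of the LPS mean over the 15 genes. Without it all 15 were still called by more than 2-fold. Their differences grew in the genes where it was far the highest, to 9.82 from 8.24 in Il10, to 9.35 from 7.96 in Lag3, to 9.26 from 8.38 in Igj and to 8.73 from 7.67 in Fam46c. In Ccr6 the difference was 7.85 without it and 6.79 with it, in Ctla4 7.32 and 6.61, and in Ly6a 7.27 and 6.78. Among genes described below, the difference was likewise 6.35 without it and 5.56 with it in Traf1, 6.12 and 5.49 in Bcl2a1d, 6.58 and 6.03 in Fcrl5, and 5.91 and 5.49 in Cr2. It was 6.65 and 6.22 in Derl3, 5.90 and 5.44 in Gpr183, 4.15 and 3.66 in Nfil3, and 5.09 and 4.66 in Slc7a3.

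**Figure D3:**
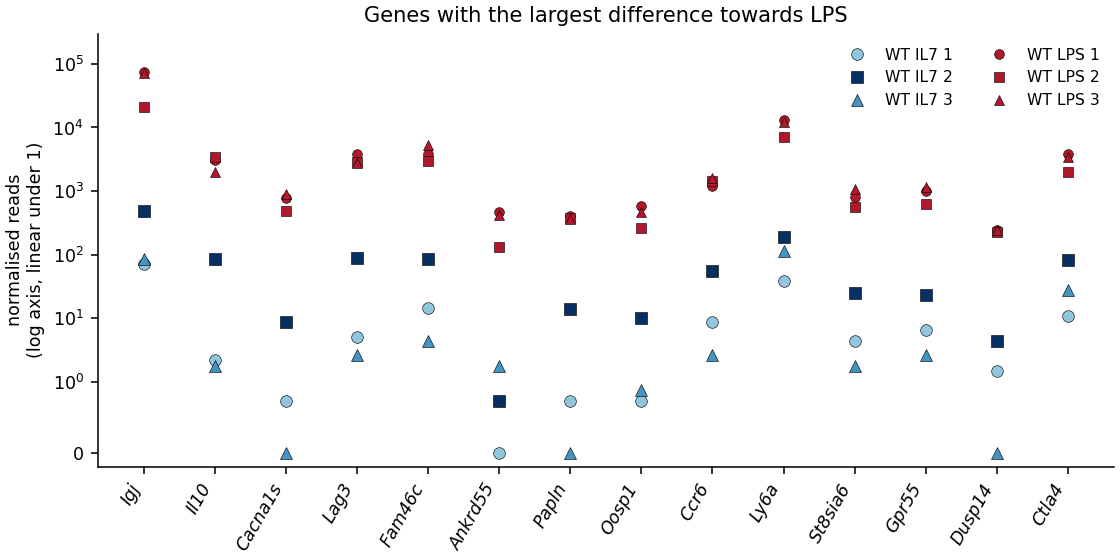
Normalised reads of the genes named above in each WT library, on a log axis that is linear under 1, with IL7 in blue and LPS in red. The dark blue square is WT IL7 2, which is the highest IL7 library in every gene drawn except Ankrd55. It lies below every LPS library in all of them, which the rule that chose the genes requires.

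Receptors and adaptors of LPS sensing were mostly higher in the LPS cultures, though the gene of the receptor itself did not pass. Tlr4 was at 82.5, 132 and 132 in IL7 and 201, 159 and 133 in LPS, a log2 difference of 0.52 ± 0.25 (SE, limma adjusted p = 0.103), so its groups just separate but the difference did not pass. Cd180, the B cell homologue of TLR4, was at 686, 379 and 347 and 1072, 1022 and 1318 (limma adjusted p = 0.001), and Ly86, which encodes its partner MD-1, was at 448, 361 and 172 and 3169.9, 2668 and 2435. Tlr7, a sensor of RNA in endosomes, differed most, from 49.3, 78.9 and 35.5 to 2659, 1831 and 2614. Per kilobase of exons, Tlr4 was at 20.8 ± 5.18 in IL7 and 29.6 ± 6.16 in LPS, and Tlr7 at 13.4 ± 5.43 and 580.0 ± 114 (SD, n = 3). Among the TLR genes named here, then, the transcript of the RNA sensor and not that of the LPS sensor was the more abundant in LPS cultures. Tlr1 was higher by 3.59, the kinase Irak2 by 3.73 and the adaptor Ticam1 by 2.55. The ubiquitin ligase Traf6 was lower, with a difference of -0.62, and its partners Tab2 and Map3k7 did not pass. Of 27 genes 17 were higher and 1 lower, and total read scaling called 4 lower.

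Subunits, inhibitors and targets of NF-kB were mostly higher as well. Of 38 genes 28 were higher and 3 lower, with a median of 1.34. Cd83, a surface marker of activation, was at 402, 362 and 105 in IL7 and 7203, 6117 and 5756 in LPS. Traf1, an adaptor of survival receptors, was at 17.7, 84.8 and 13.3 and 1165, 1773 and 1162, and the survival gene Bcl2a1d at 3.68, 16.8 and 3.55 and 335, 348 and 296. Bcl2a1d belongs to a family of near-identical copies, so its count may be split among them. Rela, which encodes 1 of the subunits, and the kinase genes Ikbkb and Chuk did not pass, with log2 differences of -0.02, 0.10 and 0.16. The subunit genes Rel, Relb, Nfkb1 and Nfkb2, looked up after values had been seen, had higher means in LPS. Per kilobase of exons Rel was at 31.2 ± 4.18 in IL7 and 122 ± 27.1 in LPS (SD, n = 3). Nfkb1 was at 151 ± 21.3 and 208 ± 29.8. Lta, the cytokine lymphotoxin alpha, went the other way, at 600.1, 561 and 1083 in IL7 and 57.2, 55.1 and 77.8 in LPS.

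Activation and costimulation genes had a median of 2.49, with 26 of 30 higher and 2 lower. Cd86, the costimulatory ligand of CD28, was at 42.0, 62.1 and 24.9 and 1269.6, 1229 and 991. Fas, the death receptor of activated cells, was at 27.1 ± 1.96 in IL7 and 302 ± 25.0 in LPS (SD, n = 3), and Plek, a substrate of protein kinase C, at 358 ± 128 and 7213 ± 1193. The exceptions were Sema4a, a semaphorin, at 1179, 1336 and 1074 and 16.3, 46.8 and 31.8, and Tfrc, the transferrin receptor that imports iron, at 6222, 10313 and 8939 and 2379, 2250.4 and 2287. Immediate early genes were higher in 23 of 31, among them Egr2 (4.17), Junb (2.68) and the phosphatase gene Dusp4 (6.27, and 7.33 without WT IL7 2). Klf2, a factor of resting lymphocytes, was at 1239, 809 and 458 and 712, 803 and 693 and did not pass, while it was higher by 0.99 in the T58A libraries.

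Coreceptors and Fc receptors of mature B cells were higher in 21 of 30, with a median of 1.66. Cr2, the complement receptor CD21, was at 39.8, 68.7 and 19.5 and 1796, 1762 and 1676, and Fcer2a, the low affinity IgE receptor CD23, at 20.6, 49.7 and 25.8 and 255, 682 and 576. Fcrl5, an Fc receptor homologue of mature cells, was at 33.9, 73.1 and 14.2 and 2214, 2274 and 2177, and Fcgr2b, the inhibitory IgG receptor, at 585, 479 and 304 and 6405, 5261 and 5288. Cr2, Fcrl5 and Fcgr2b lay within narrow ranges in LPS, while their IL7 values were spread over more than the LPS ones in proportion. The kinase gene Blk and the tetraspanin gene Cd37 did not pass, at -0.07 and 0.10. Cd5 was lower at 28.7, 18.3 and 36.4 and 13.1, 7.27 and 2.36, a difference of -1.93, and differed by 0.15 without passing in the T58A libraries.

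Class II antigen presentation genes were higher in 17 of 19 and lower in none, with a median of 2.16 in a background of 28% higher. H2-Aa, an alpha chain that shows peptides to T cells, was at 3441, 2039 and 894 in IL7 and 24834, 22537 and 18686 in LPS, a log2 difference of 3.57 ± 0.39 (SE, limma adjusted p = 4.67e-05). H2-Eb1 was at 2685, 1722 and 732 and 16825, 19101 and 16146. Both genes had the same order within the IL7 cultures, with WT IL7 1 highest and WT IL7 3 lowest. The proteases that prepare peptides were higher too, with Ctss at 831 ± 208 and 5129 ± 959 and Lgmn at 396 ± 69.3 and 3023 ± 458 (SD, n = 3). Ifi30, a reductase of endosomes, did not pass at a limma adjusted p of 0.0519. It passed with the library number as a block, at a limma adjusted p of 0.0234, and without WT IL7 1. Rfxap, a subunit of the factor that drives class II promoters, did not pass at a difference of -0.01.

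Homing and adhesion genes were higher in 26 of 36 and lower in 4. Gpr183, the oxysterol receptor that positions activated B cells, was at 14.7, 43.8 and 16.9 and 1011, 921 and 1095. Itgal, a chain of the integrin LFA-1, was higher by 3.29 and Alcam by 3.98. Itga6, a laminin receptor chain, and Ptger4, a prostaglandin receptor, were lower, with differences of -2.31 and -1.65. Of 18 cytokine and chemokine genes 10 were higher and 3 lower. Apart from Il10, those higher by more than 2-fold included Ccl3 and Ccl4, which attract monocytes and T cells, at 8.84, 10.2 and 12.4 and 163, 112 and 154 for Ccl4, and Il6 at 0, 2.19 and 0.888 and 45.8, 36.4 and 20.0. Tgfb1, an inhibitory cytokine, was lower, at 4078, 3615 and 3529.9 and 913, 1169 and 798.

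Genes of plasmablast identity were nearly all higher in LPS. Limma called 32 of 33 higher and none lower, 26 by more than 2-fold against 7.98% of all genes, with a median of 2.82. Besides Prdm1 and Igj, Derl3, which draws misfolded proteins out of the endoplasmic reticulum, was at 36.8, 91.3 and 35.5 in IL7 and 4761, 3101 and 3583 in LPS. Ell2, an elongation factor that favours the secreted form of antibody mRNA, was at 247 ± 38.4 and 3886 ± 949, and Il5ra, a cytokine receptor, at 103 ± 5.61 and 918 ± 38.5 (SD, n = 3). Xbp1, the factor that expands the secretory apparatus, was at 2237, 2728 and 2822 and 11842, 6627 and 15881. WT LPS 2 was the lowest LPS library for both Xbp1 and Igj. Sdc1, which encodes the plasma cell marker CD138 and is also present on precursor B cells, was the single member that did not pass. It was at 236, 237 and 262 in IL7 and 229, 148 and 282 in LPS. With WT IL7 2 left out, 31 of 33 were higher and the median was 2.90.

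The class switch list moved less as a group, with 5 of 20 higher and 7 lower, shares not far from those of all genes. The class switch factors Batf and Nfil3 were higher, Nfil3 from 22.1, 47.5 and 11.6 to 312, 403 and 222. Ung, the glycosylase that removes uracil from DNA, was lower, at 417, 381 and 545 and 141, 144 and 165, and so was Fam72a, which limits Ung, at 165, 218 and 211 and 62.1, 41.6 and 55.4. Msh6, which recognises mismatches, did not pass at a difference of -0.18.

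The secretory apparatus was mostly higher in LPS. Of 71 genes of endoplasmic reticulum folding and secretion, 64 were higher at an adjusted p under 0.05 and none lower, and 23 were higher by more than 2-fold, a count that became 35 without WT LPS 2. Without WT LPS 3, 1 gene was lower. The median was 1.23. Hspa5, the BiP chaperone, was at 5674, 6664 and 5902 in IL7 and 44750.3, 26968 and 30432 in LPS. Hsp90b1, the GRP94 chaperone, was at 7990.1, 8378 and 8755 and 54920.3, 27086 and 44986, and Pdia4, a disulphide isomerase, at 1949, 2071 and 1566 and 16585, 10032 and 14416. Sel1l, a part of the complex that removes misfolded proteins, was at 895, 1154 and 979 and 8317, 6388 and 7602, and Sec24d, a coat protein of vesicles that leave the compartment, was higher by 2.34. In Hspa5, Hsp90b1, Pdia4 and Sel1l every LPS library exceeded every IL7 library, and WT LPS 2 was the lowest LPS library in each. Groups did not overlap in 64.4% of all genes tested. The chaperone gene Canx and the ubiquitin ligase gene Syvn1 did not pass, with differences of -0.10 and 0.23.

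Promoters of this list are shown because many of its members are known targets of ATF6 and XBP1 through the ER stress element, CCAAT and CCACG with 9 bases between. The 250 bases before the RefSeq start on GRCm38.p6 follow for Hspa5 (chr2:34771840-34772089, forward strand), Hsp90b1 (chr10:86705445-86705694, reverse strand) and Derl3 (chr10:75893148-75893397, forward strand). Capitals mark each full element on either strand.
Hspa5: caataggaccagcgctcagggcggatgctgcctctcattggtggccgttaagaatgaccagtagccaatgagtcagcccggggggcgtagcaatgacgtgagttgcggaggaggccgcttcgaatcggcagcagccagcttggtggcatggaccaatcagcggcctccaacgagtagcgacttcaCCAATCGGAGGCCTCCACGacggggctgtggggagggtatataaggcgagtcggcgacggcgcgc
Hsp90b1: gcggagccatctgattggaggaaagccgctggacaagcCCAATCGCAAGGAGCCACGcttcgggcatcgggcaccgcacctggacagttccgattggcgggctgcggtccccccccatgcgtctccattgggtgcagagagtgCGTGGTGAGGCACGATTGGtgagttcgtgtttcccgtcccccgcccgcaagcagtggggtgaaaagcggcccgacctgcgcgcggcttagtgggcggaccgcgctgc
Derl3: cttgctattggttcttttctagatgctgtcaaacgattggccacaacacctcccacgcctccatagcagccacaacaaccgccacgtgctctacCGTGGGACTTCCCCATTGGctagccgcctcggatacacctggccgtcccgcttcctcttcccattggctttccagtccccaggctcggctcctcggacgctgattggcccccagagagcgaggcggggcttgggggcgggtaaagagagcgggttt
Hsp90b1 held 2 elements, 1 on each strand, and the others 1 each. The element was in 9 of 66 promoters of the list (13.6%), in 15 of 11814 promoters of tested genes (0.127%) and in 39 of all 32851 promoters of the table (0.119%). The list members that hold it were Calr, Canx, Derl3, Dnajc3, Ero1lb, Hsp90b1, Hspa5, Pdia6 and Syvn1. Of these 9, 7 were higher in LPS, 6 by more than 2-fold, while Canx and Syvn1 did not pass. Over the whole list 64 of 71 were higher. Of all 15 tested genes that hold the element, 9 were higher and 2 lower. The short core CCACG alone, which lies inside the element, was in 68.2% of the list's promoters and 47.3% of those of tested genes. This element, the genes shown and the comparison were chosen after values had been seen.

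Transcripts of the unfolded protein response and of ATF4 were higher in 15 of 29 and lower in 2. Atf6, a sensor of misfolded protein, was at 738, 761 and 545 and 4953, 4587 and 4786, while Atf4 was at 3342, 3199.8 and 3819.6 and 4814, 4686 and 3486 and did not pass, except without WT LPS 3, where its difference was 0.47. Atf3 and Chac1, a glutathione degrading enzyme, were higher by 3.86 and 3.12. Phgdh, of serine synthesis, and Shmt2, which turns serine into glycine in mitochondria, were both lower, with differences of -0.88 and -0.88. Psat1, also of serine synthesis, did not pass at 0.07.

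**Figure D4:**
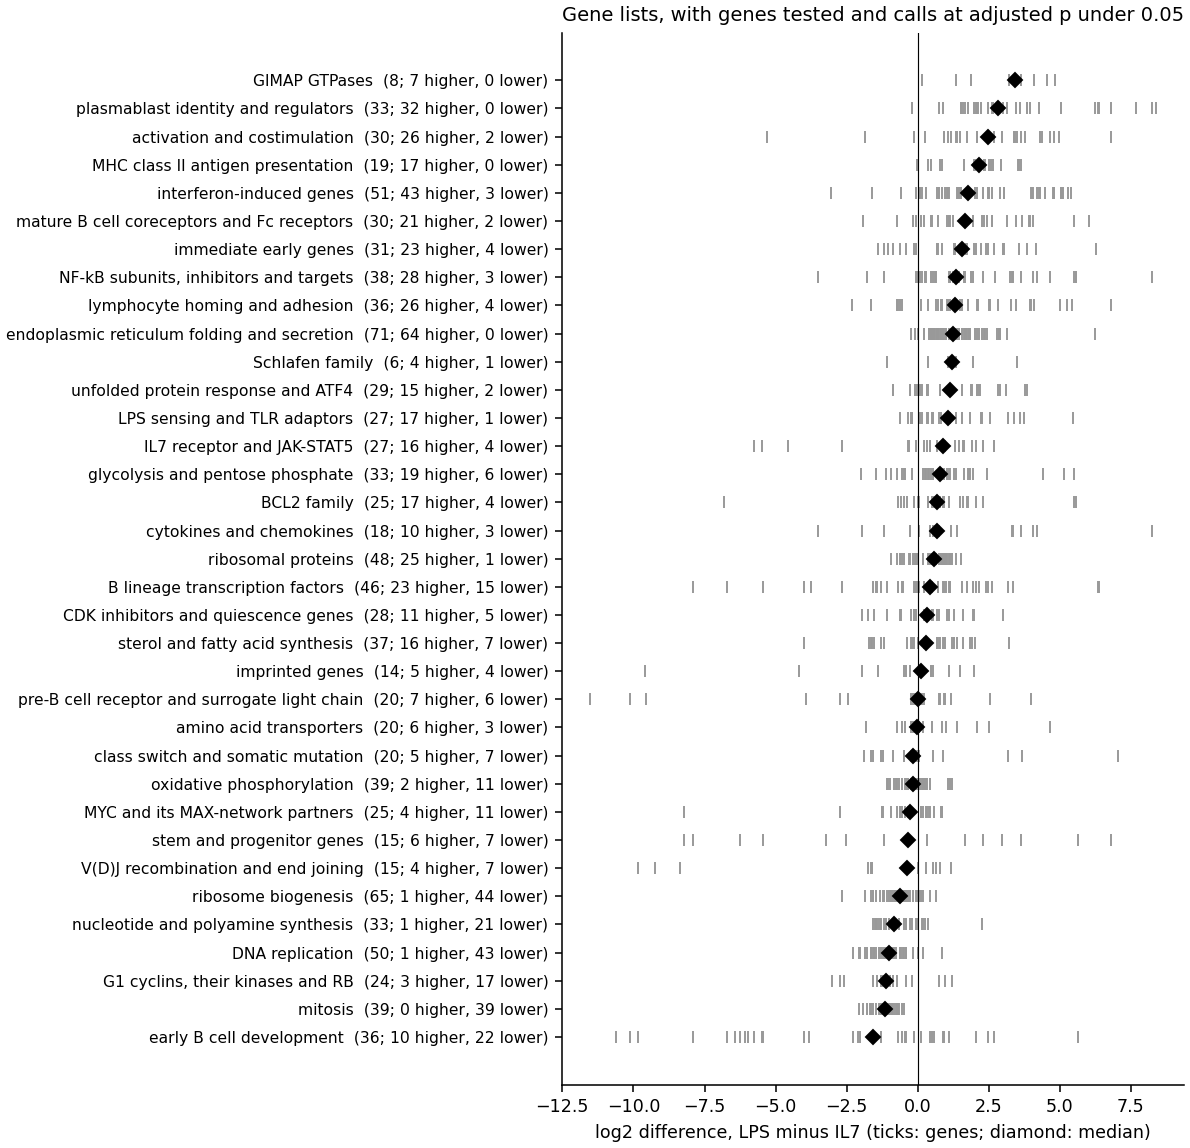
Each row is 1 gene list with its number of genes tested and of genes called higher or lower in LPS by limma at an adjusted p under 0.05. Ticks are log2 differences of single genes, LPS minus IL7, and diamonds are medians, from -1.58 for early B cell development to 3.43 for the GIMAP family.

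Proliferation genes were lower in the LPS cultures. All 39 mitosis genes tested were lower at an adjusted p under 0.05, with a median of -1.14, against 28.7% of all genes. Plk1, the kinase that drives entry into mitosis, was at 1326, 1507 and 1435 in IL7 and 248, 368 and 421 in LPS, and Ccnb2, a mitotic cyclin, at 1756 ± 116 and 547 ± 63.2 (SD, n = 3). Incenp, which places the Aurora B kinase, was lower, with a difference of -1.92. Mki67, the proliferation marker Ki-67, was at 10382, 17153 and 14408 and 9451, 7995 and 10414, with values that overlap at their edges. It passed narrowly at a limma adjusted p of 0.0482, and it did not pass without WT IL7 2, WT IL7 3, WT LPS 1 or WT LPS 2, each left out in turn, or without the filter on low counts.

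Of 50 DNA replication genes, 43 were lower and 1, Orc5, was higher, with a median of -1.01. Uhrf1, which copies DNA methylation marks, was at 4273, 5049 and 5609 and 853, 923 and 1356, and Pold1, the catalytic subunit of polymerase delta, at 3103, 2861 and 2706 and 654, 910.1 and 559.8. Dut, which keeps uracil out of DNA, and the methyltransferase Dnmt1 were lower, with differences of -1.85 and -1.65. Orc3 and Rfc2 did not pass, at 0.02 and 0.18. Of 24 genes of G1 cyclins, their kinases and the RB family, 17 were lower and 3 higher. The repressor E2f8 was at 1213, 1481 and 1382 and 206, 239 and 236, and Skp2, which degrades p27, at 454, 745 and 782 and 80.1, 74.8 and 141. The 3 higher were Ccnd2, the D cyclin of activated B cells, at 2559, 3749 and 3404 and 5876, 7105 and 5577, and the growth suppressors Rb1 (1.20) and Rbl2 (0.74). Of 28 CDK inhibitors and quiescence genes, 11 were higher and 5 lower, with a median of 0.31 that becomes -0.26 with the size factors of each table, 0.17 without WT IL7 3 and 0.20 without WT LPS 2. Txnip, which limits glucose uptake, was at 1424, 932 and 809 and 7404, 9948 and 7718, and Cdkn2c, the inhibitor p18, was lower, with a difference of -1.53. Btg1, an antiproliferative gene, was at 3084, 1316 and 1203 and 2849.7, 2923 and 2749, a limma adjusted p of 0.0559, and it passed at 0.0175 with the library number as a block and also without WT IL7 1.

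Of the MYC family, Myc and Mycn were lower in LPS and Mycl, which had few reads in both cultures, did not pass. Myc was at 1595, 2585 and 3113 in IL7 and 891, 1316 and 877 in LPS, a log2 difference of -1.21 ± 0.25 (SE, limma adjusted p = 0.00212). Mycn, on chromosome 12 from 12936093 to 12941836, was at 278, 337 and 276 in IL7 and at 0 reads in every LPS library, at least 241-fold lower. Per kilobase of exons Myc was at 895 ± 284 and Mycn at 90.2 ± 10.4 in IL7 (SD, n = 3), so Mycn was the less abundant of the pair where both were read. Of 25 genes of the MAX network 11 were lower and 4 higher. The 4 higher were Fbxw7, the ligase that recognises phosphorylated MYC, at 341 ± 10.5 and 629 ± 123 (SD, n = 3), and Mxi1, Mxd4 and Mlx. The count was 2 without WT IL7 2 and also 2 without WT IL7 3. Mxd4 and Mlx did not pass without WT IL7 2, WT IL7 3 or WT LPS 1, and Mlx did not pass without WT LPS 3 either. The median of the list was -0.26, also with Mycn at its bound.

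Ribosome biogenesis went with the IL7 cultures as well. Of 65 genes 44 were lower and 1 higher (2 without WT LPS 2 or WT LPS 3), with a median of -0.62. Bysl, which matures the small subunit, was at 2463, 2379 and 2672 and 376, 346 and 456, and Rrs1 at 705, 823 and 959 and 194, 182 and 325. Heatr1 and Ftsj3, of the processome and of rRNA methylation, did not pass at limma adjusted p-values of 0.0751 and 0.0532. Both passed without WT LPS 3, Heatr1 also without WT IL7 1, and with the library number as a block they passed at 0.0301 and 0.0383. Ribosomal protein genes did not follow them. Of 48 tested 25 were higher and 1 lower (0 to 2 lower with 1 library left out), with a median of 0.57 that becomes -0.01 with the size factors of each table. Rps14 was at 3916, 3456 and 3672 and 11065, 7827 and 6839, and Rpl23 at 1002, 1415 and 1276 and 3652, 3145 and 2586. Many of these genes have near-identical pseudogene copies that can split their reads, so their values are uncertain. Rps16 was at 322, 726 and 1017 in IL7 and 1672, 1514 and 486 in LPS and did not pass, with WT LPS 3 far below the other LPS libraries, and its difference was 0.79 with that library and 1.37 (called) without it.

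Nucleotide and polyamine synthesis was lower in 21 of 33 genes and higher in 1 (2 without WT LPS 2), Sat1, which breaks polyamines down, at 246, 177 and 136 and 1176, 806 and 696. Impdh1, of guanine nucleotide synthesis, was at 1544, 1748 and 2511 and 570.3, 666 and 685. Glycolysis genes were mostly higher, 19 of 33, with 6 lower and a median of 0.77. The neuronal type aldolase Aldoc was at 26.5, 86.2 and 22.2 and 1123, 2146 and 1031, and Slc16a3, which exports lactate, at 12.5, 66.5 and 13.3 and 1021, 1521 and 762. Slc16a1, the other main lactate carrier, was lower, at 2198, 2837 and 3329 and 768, 649 and 651, so the pair differed in opposite directions. WT IL7 2 held the highest IL7 value in Aldoc and Slc16a3, whose differences without it were 5.74 and 6.24. Ldha did not pass, with a difference of 0.28.

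Sterol and fatty acid genes split, with 16 of 37 higher and 7 lower and a median of 0.30 that becomes -0.28 with the size factors of each table. It was 0.54 without WT LPS 1, 0.48 without WT LPS 2 and 0.19 without WT LPS 3. The desaturase Scd1 was at 2590.2, 3220.3 and 2075 and 9252, 10235 and 11856, and Insig1, which holds back sterol synthesis, was higher by 1.93. Elovl6, which lengthens fatty acids, was lower, at 1959, 2749.7 and 2676 and 109, 129.9 and 239. The sterol and fatty acid regulator Srebf1 and the enzyme gene Acly did not pass, at 0.02 and -0.17. Of 39 respiratory chain genes 11 were lower and 2 higher, shares under those of all genes, and the median was -0.18, which is -0.04 without WT IL7 3 and changes sign without WT LPS 2. Uqcrc1 and Cyc1, of the third complex, were lower, with differences of -1.06 and -0.99. The lower count was 7 without WT IL7 2 and also 7 without WT IL7 3, and the higher count was 5 without WT LPS 2 and 1 without WT LPS 1. Among 20 amino acid transporters 6 were higher, a share close to the 28% of all genes, led by Slc7a3, an arginine carrier, at 11.8, 38.7 and 18.7 and 786, 629 and 324, and 3 were lower (5 without WT IL7 1), among them Slc43a1, a carrier of neutral amino acids, at a difference of -1.81.

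Of 25 genes of the BCL2 family and its death pathway, which hold both survival and death genes, 17 were higher in LPS and 4 lower, with a median of 0.68. Bcl2 was at 134, 209 and 208 in IL7 and 763, 1179 and 764 in LPS, and Mcl1 at 3890.5, 2999 and 3034 and 11984, 10292 and 10446. Per kilobase of exons Mcl1 was at 968 ± 148 in IL7 and 3191 ± 274 in LPS, and Bcl2 at 20.1 ± 4.69 and 98.5 ± 26.2 (SD, n = 3), so Mcl1 was the more abundant of the pair in both. The death gene Pmaip1, which encodes NOXA, an antagonist of MCL1, was higher too, by 2.06. Bok, a pore-forming relative, was at 97.2, 97.9 and 145 in IL7 and at 0 in all LPS libraries, at least 89.9-fold lower.

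Interferon-induced genes were higher in LPS in 43 of 51 and lower in 3, with 32 higher by more than 2-fold and a median of 1.78. Irf7, the factor that amplifies interferon production, was at 22.8, 43.1 and 30.2 and 1124, 1293 and 949.9. Mx1, which RefSeq lists as a transcribed pseudogene on GRCm38.p6, was at 8.84, 15.3 and 7.11 and 315, 446 and 332. Oas2, a sensor of double-stranded RNA, was at 17.5 ± 3.05 and 515 ± 127 (SD, n = 3). Ifi27l2a was at 369, 339.8 and 186 and 6466, 4686 and 5962. Iigp1, a GTPase induced by interferon gamma, was lower, at 28.7, 27.0 and 168 in IL7 and 4.90, 4.16 and 7.07 in LPS, with WT IL7 3 well above the rest. Psmb8 and Tap2, of class I peptide supply, and Nlrc5 did not pass, at -0.07, 0.07 and 0.16. Other peptide supply genes, looked up after values had been seen, differed more. Per kilobase of exons Tap1 was at 373 ± 10.1 in IL7 and 789 ± 102 in LPS (SD, n = 3). Psmb9 was at 305 ± 31.7 and 507 ± 6.74, while Psmb10 was at 619 ± 77.0 and 407 ± 32.6.

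The interferon response element, bound by a complex of STAT proteins and IRF9, repeats GAAA with 2 bases between. The 250 bases before the RefSeq start are shown for Isg15 (chr4:156200819-156201068, reverse strand) and Ifit1 (chr19:34640639-34640888, forward strand), the textbook carriers of the element. Capitals mark each GAAA-2 bases-GAAA core on either strand.
Isg15: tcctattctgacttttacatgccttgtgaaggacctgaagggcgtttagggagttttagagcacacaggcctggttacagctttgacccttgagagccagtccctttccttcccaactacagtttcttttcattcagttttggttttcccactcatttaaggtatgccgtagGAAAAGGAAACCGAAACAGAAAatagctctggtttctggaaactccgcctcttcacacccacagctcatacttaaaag
Ifit1: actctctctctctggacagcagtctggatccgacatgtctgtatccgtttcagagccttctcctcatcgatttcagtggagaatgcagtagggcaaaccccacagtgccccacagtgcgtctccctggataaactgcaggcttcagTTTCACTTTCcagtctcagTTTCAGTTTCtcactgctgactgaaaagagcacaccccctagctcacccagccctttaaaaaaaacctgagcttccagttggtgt
Isg15 held 3 overlapping cores that begin 78 to 66 bases before its start, and Ifit1 held 2 on the opposite strand. The core was in 21 of 42 promoters of the list (50%), in 6.18% of promoters of genes higher by more than 2-fold, in 2.14% of those lower by more than 2-fold and in 3.12% of those of all tested genes. Of the 20 list members that hold it, 18 were higher in LPS and 1 lower, where 43 of 51 were higher and 3 lower over the whole list. Of all 353 tested genes that hold it, 148 were higher and 77 lower. Isg15 was at 22.1, 9.50 and 20.4 in IL7 and 531, 319 and 629 in LPS, and Ifit1 at 2.95, 4.38 and 0 and 70.3, 129 and 89.6. The core and both genes were chosen after values had been seen.

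Markers of other cells were read to see what else the cultures held. Summed over 37 myeloid markers, the level ran from 2048 to 3729.8 normalised reads in IL7 and from 1637 to 2147 in LPS. The most abundant members over both cultures were Csf2rb and Itgam. Per kilobase of exons Csf2rb was at 178 ± 8.88 in IL7 and 104 ± 19.3 in LPS, and Itgam at 18.7 ± 2.03 and 135 ± 35.3 (SD, n = 3). Granule and neutrophil transcripts were present at low level in IL7 and at or near 0 in LPS. S100a9 was at 267, 92.1 and 403 and 1.63, 0 and 0, Ngp at 147, 54.1 and 268 and 0, 1.04 and 0, and Lyz2 at 203, 137 and 549 and 11.4, 19.7 and 14.1. Camp and Elane had 0 reads in LPS. Of 17 tested 12 were lower and 3 higher, and of the 9 left by a filter at 50 reads in 3 libraries 6 were lower. Markers near 0 in LPS pass either filter only through their IL7 reads. These counts were thus partly set by the filter and give no direction for the list. Itgam, an integrin chain that activated B cells can also carry, was higher in LPS by 2.81. Of the hemoglobin genes Hba-a1, Hba-a2, Hbb-b1, Hbb-b2, Hbb-bs and Hbb-bt none had a read in any WT library, and the sum of 23 erythroid and megakaryocyte markers, from 7343 to 11622 in IL7 and from 2394 to 2516 in LPS, consisted mostly of Tfrc.

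T cell and NK markers summed from 1271 to 1891 in IL7 and from 3571 to 5363 in LPS, with Ctla4, which is among the 15 genes above, the most abundant in LPS. Thy1 was at 306, 579 and 763 in IL7 and 3.27, 0 and 5.89 in LPS, while Cd247 and Lck did not pass, at -0.09 and 0.29. Of 11 tested 6 were higher and 3 lower, with a median of 1.59. Markers near 0 in 1 culture, such as Thy1 and Tbx21, pass the filter only through their reads in the other. These counts and the median were thus partly set by the filter and give no direction for the list. Besides Ctla4, those called higher were Cd3g, Cd28, Tbx21, Prf1 and Il2rb. Tbx21, a factor that B cells can also use, was at means of 1.27 and 147 in IL7 and LPS. Besides Thy1 the lower ones were Cd5 and Foxp3, Foxp3 at 37.4 and 20.5 per kilobase of exons. On that scale Cd3d, Cd3e and Cd3g were at 1.11, 0.578 and 1.25 in IL7 and 3.29, 0.315 and 9.91 in LPS. Cd4 was at 0.829 and 0.794, so these T cell markers were low in both cultures and split in direction. Dendritic cell markers summed from 7760.0 to 11797 and from 18267 to 20536, mostly from Irf8 and Ly6d, which B cells express. Mast cell and basophil markers summed from 269 to 565 and from 7.27 to 23.6, with Kit at 247, 468 and 484 and 4.90, 1.04 and 9.43, and Tpsab1, Tpsb2 and Cma1 had 0 reads in all WT libraries. Stromal and endothelial markers summed from 1432 to 1749 and from 1247 to 1365, mostly from Pecam1 and Eng. Eng, the TGF-beta coreceptor endoglin, was at 705, 756 and 1061 and 14.7, 46.8 and 37.7. The part of other cells in the differences between cultures was not tested.

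The same comparison in the T58A libraries, which share no library with the WT comparison, gave 1111 genes higher and 796 lower by more than 2-fold among 11773 tested (9.44% and 6.76%). Of the 933 WT genes higher by more than 2-fold, 906 were tested there, all 906 had the same direction and 808 were called by more than 2-fold again. Of the 736 lower ones 713 were tested, all 713 had the same direction and 626 were called again. Of 41 list medians 1 had another sign, that of the sex-linked genes. Class II genes differed by a median of 3.23 in T58A libraries and 2.16 in WT, and ribosomal protein genes by 1.22 and 0.57. The folding and secretion genes differed by 0.81 and 1.23. Over the 14 and 17 myeloid markers tested the medians were -1.65 and -3.75, and over the 5 and 6 erythroid and megakaryocyte ones -0.10 and -1.24. The filter kept different markers of other cells in the T58A and WT comparisons. Whether these medians differ between genotypes was not tested here.

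**Figure D5:**
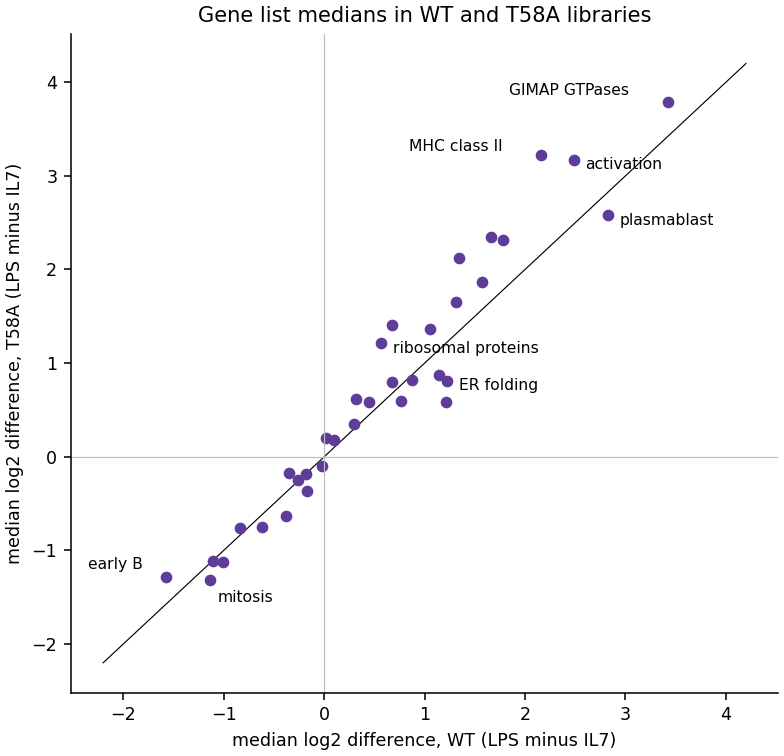
Each point is 1 gene list, leaving out the sex-linked genes and the markers of other cells, at its median log2 difference of LPS minus IL7 in the WT libraries (x axis) and in the T58A libraries (y axis), and the line marks equal values. Points lie along the line, with class II, ribosomal protein and activation genes above it and plasmablast and ER folding genes below it.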

How the data were processed

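RNA was sequenced from 12 cultures, and the 6 WT libraries were analysed here (3 per stimulus, grouped by title). Per the labels' protocols, libraries were made with a TruSeq RNA v2 kit, which does not keep the strand, so genes that overlap on opposite strands cannot be told apart. The submitters' processing notes name bcl2fastq 1.8.4, TopHat2 2.1.0, HTSeq 0.6.1, DESeq2 and build mm10. The deposited signal values are reads divided by 1 size factor per library, set by the authors in each culture's table separately: dividing by the smallest step gave whole reads for 100% of values, within 0.001. These recovered reads were scaled together by median-of-ratios size factors over the 23973 symbols in both tables, and 42 symbols of 1 table were not used here.

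Genes kept by filterByExpr of edgeR 4.0.16 (minimum count 10, total 15) were tested with limma 3.58.1 (R 4.3.3) in its trend form on log2(normalised reads + 1), with Benjamini-Hochberg adjustment over all of them, and with limma's treat against 2-fold. The script recovered known changes in simulated counts. Named genes are the 15 with the largest difference in each direction among those called by more than 2-fold, not overlapping and at 100 normalised reads or more in the higher group, and members of gene lists. From each list they are up to 5 members per direction with the smallest p and up to 3 abundant ones that did not pass, with defining genes such as Myc and Sdc1. Some genes are not reported here. Predicted genes, pseudogenes and receptor segments were left out of the first set. The members and lists were chosen with earlier results of these data known. Intervals are exact at 95%, and with floors of 3 reads they cover counting error only. Libraries with the same number in the titles deviated together: the correlations of their deviations from the culture means were 0.150, 0.143 and 0.309, against -0.232 to 0.0966 for other numbers. Alternatives were TMM, total read and deposited scaling, other filters and pseudocounts, edgeR's quasi-likelihood test on the recovered reads (3321 genes higher and 3258 lower), DESeq2 1.42.0, limma-voom, all 12 libraries in 1 fit, the number as a block, each library left out, and the T58A libraries, of which 2 LPS columns show the group but no number. Promoters and RefSeq coordinates are of GRCm38.p6, and 11648 of 11694 symbols matched.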

Additional observations from a re-analysis of the deposited data

How the results depend on the processing

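The only alternative that moved a count of calls over all genes by over 1.5 times was keeping the size factor of each table, which gave 1673 genes higher and 6438 lower, and by more than 2-fold 568 higher and 1673 lower, since the tables were scaled separately. Under it, the difference turned negative in these named genes: Bcl2l13 (-0.53), Blnk (-0.47), Cd37 (-0.48), Chuk (-0.42), Cox4i1 (-0.49), Elf1 (-0.53), G6pdx (-0.38), Ikbkb (-0.48), Irf8 (-0.070), Mlx (-0.0043), Orc3 (-0.55), Poll (-0.55), Prkdc (-0.043), Rfc2 (-0.40), Srebf1 (-0.56), Tap2 (-0.50) and Uqcrc2 (-0.37). Not all of them were near 0 before, since Mlx is described above as higher. With the T58A libraries in place of WT the sign was the other one in Cd5 (0.15), Ddx3y (0.76), Eif2s3y (1.15), Itga2b (0.99), Klf2 (0.99), Rpl27 (0.33) and Slc7a5 (-0.49), and the cause was not tested. With 1 library left out, 2823 to 3208 genes were higher and 2827 to 3348 lower, and by more than 2-fold 767 to 949 were higher and 585 to 790 lower. With the library number as a block, 3358 were higher and 3464 lower, and by more than 2-fold 1003 and 804. The block brought Ifi30, Btg1, Heatr1 and Ftsj3 to a call, as given beside them. It also brought Xist to a call, with a difference of 0.54 (limma adjusted p = 0.0286), and changed no other call of a gene named in the report. It moved the counts at an adjusted p under 0.05 of the lists described there by at most 1.5 times, as in the BCL2 family, with 16 higher and 5 lower, and in endoplasmic reticulum folding, with 63 higher. Over all named genes and alternatives, 6499 values kept their sign and side of the threshold, 161 gained a call, 52 lost one and 24 reversed. At these depths a gene at 0 in 1 library may still lie below 2.19 to 4.90 normalised reads.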

Other observations

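Of 8 GIMAP genes tested, which encode GTPases of lymphocyte survival, 7 were higher in LPS by limma at an adjusted p under 0.05. Gimap3 was at 126, 267 and 131 normalised reads in IL7 and 4634, 5407 and 4197 in LPS, and Gimap6 at 644, 649 and 627 and 6451, 5631 and 5944. Gimap9 stood outside this pattern, at 365, 319 and 406 and 485, 326 and 411, and did not pass. The IL7 values of Gimap3 and Gimap6 lay below every LPS value, while groups did not overlap in 64.4% of all genes tested. Of 6 Schlafen genes 4 were higher and 1 lower. Slfn2, which is needed for lymphocyte quiescence, was at 1296 ± 232 and 4953 ± 968 (SD, n = 3), Slfn5 was higher by 3.48, and Slfn3 was lower, with a difference of -1.09. These genes lie close together and resemble each other, so reads can be split among them.

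Genes named for stem and progenitor cells split between the cultures, with 7 of 15 lower and 6 higher in LPS. Besides Kit, Erg, Sox4 and Mycn, the lower ones included Meis1, a partner of HOX proteins, with a difference of -2.53. The higher ones included the cytokine receptor Flt3, at 15.5, 85.5 and 7.11 in IL7 and 788, 1538 and 1190.3 in LPS (a difference of 5.64, and 6.60 without WT IL7 2), and Lmo2, a scaffold of blood transcription factors, at 202, 295 and 127 and 1392, 1767 and 1509.6. Satb1, a chromatin organiser, was higher by 2.30. Among 14 imprinted genes 5 were higher (3 without WT IL7 2) and 4 lower, shares close to the 28% and 28.7% of all genes. Igf2r, which binds IGF2, was higher, at 516 ± 71.4 and 1458 ± 78.5 (SD, n = 3), and Grb10, a growth inhibitor, was lower, at 58.2, 46.0 and 113 in IL7 and 4.90, 1.04 and 3.54 in LPS.

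A small number of genes varied with the library number in the same way in both WT cultures. By a rule set after values had been seen, 12 genes with a mean of at least 100 normalised reads had a range of at least 1 (log2) across the numbers in both cultures, with deviations that matched within 0.5. The match between cultures in the genes below follows from this rule. How many genes would match under unlike numbers was not counted. Apobec3, which restricts retroviruses, was at 510.2, 2357 and 2646 in WT IL7 1 to 3 and at 534, 2453 and 1927 in WT LPS 1 to 3, so WT 1 was low in both cultures. Ero1lb, an oxidase of the endoplasmic reticulum, was at 589, 381 and 170 in IL7 and 5484, 2614 and 1853 in LPS, highest in WT 1 both times. Wls, which carries WNT proteins to the surface, was lowest in WT 3 of both cultures, at 1659 and 648. The rule did not use the T58A libraries. In T58A IL7 1 to 3 Apobec3 was at 2436, 692 and 2621, so the low library there carried another number. Ero1lb was at 433, 337 and 323 in them and Wls at 1624, 2476 and 1480.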
